A study of Mus musculus with 6 samples.

Results

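The 32 genes described here encode the enzymes that make cholesterol, the proteins that sense sterols, and the proteins that carry cholesterol out of lysosomes or out of the cell. They were taken by symbol for what their products do, out of 17060 genes listed in at least 1 culture. The choice was made with earlier results of these data known. All 32 genes had enough reads to be tested. They comprised 19 synthesis enzymes, 5 SREBP regulators, 3 proteins of lysosomal export and cytosolic transfer, 4 genes of the LXR and efflux system, and Mylip, a ubiquitin ligase that marks lipoprotein receptors for degradation.

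Lineage-negative BM cells from wild-type mice, a fraction rich in hematopoietic progenitors, were grown in EPO induction culture and received NUP-17d or its vehicle DMSO for 48 hours. NUP-17d is a small molecule inhibitor of Plek2, a pleckstrin-family protein of erythroid cells that acts in PI3K signaling. Poly(A)-selected RNA of 3 cultures per condition was sequenced, and the labels name the cells erythroblasts. No genotype other than wild type, no sex and no age was stated, and the labels do not say whether the cultures came from separate mice, so the p-values measure the spread between these cultures, which may be technical.

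Cholesterol is built from acetyl-CoA through mevalonate, the isoprenoid diphosphates, squalene and lanosterol. When sterols in the endoplasmic reticulum fall, SCAP escorts the SREBP transcription factors to the Golgi, where they are cleaved and released to switch on the synthesis genes. INSIG proteins hold SCAP back when sterols are plentiful. Lipoprotein cholesterol taken up by endocytosis leaves lysosomes through NPC2 and NPC1, and the oxysterol-activated nuclear receptors LXRα and LXRβ switch on the efflux pumps ABCA1 and ABCG1. Maturing erythroid cells remodel their membranes while they fill with hemoglobin.

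Depth was nearly equal, at 20076409 to 20419018 expected counts per culture. Hemoglobin genes took 18.3% to 20.3% of the counts with DMSO and 11.8% to 13.1% with NUP-17d. The 25 erythroid genes examined, hemoglobins and red cell membrane proteins among them, were all tested. All were called lower with NUP-17d, against 18.9% of all tested genes, with a median log2 fold change of -0.71. Their summed level was 227400 to 261900 CPM (normalized counts scaled to a fixed library total) with DMSO and 126200 to 140900 CPM with NUP-17d. Markers of other cells were also present. Neutrophil genes summed to 4004 to 4184 CPM with DMSO and 4103 to 4381 CPM with NUP-17d, macrophage genes to 681.5 to 748.8 and 731.9 to 815.6 CPM, megakaryocyte genes to 451.1 to 496.0 and 520.3 to 540.9 CPM, mast cell and basophil genes to 315.4 to 328.1 and 292.4 to 302.5 CPM, and stem and progenitor genes to 451.8 to 462.8 and 462.0 to 476.8 CPM. Since the RNA came from whole cultures, fewer cells of a type and less RNA per cell cannot be told apart in any of these values. The part that the change in erythroid RNA has in the results below was not tested.

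Most of the cholesterol genes were modestly more abundant with NUP-17d. Of the 32 genes, 21 were called higher and 2 lower at an adjusted p under 0.05 in edgeR's quasi-likelihood test, and 9 were not called. Over all 12306 tested genes, 16.4% were called higher and 18.9% lower, 35.3% in all. The 32 genes were chosen with earlier results of these data known, so their share beside these values is not an independent test. The rises were small, with a median log2 fold change over the 32 genes of 0.16, beside 0.01 over all tested genes. The largest rise was that of Msmo1, 1.43-fold, and the largest fall that of Abca1, 2.44-fold. The values of the 3 DMSO and the 3 NUP-17d cultures did not overlap for 24 of the 32 genes, which was so for 46.0% of all tested genes. A change of at least 0.3 on the log2 scale with a call was seen in 8 of the 32, against 14.0% of all genes, and one of at least 0.5 in 2, Msmo1 and Abca1, against 6.09%.

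The fold changes and the counts of calls depended on how the libraries were scaled. CPM and the test above use TMM factors, which correct for the share of a library that a few very abundant genes take. When libraries were scaled by their totals alone, the median change over all genes was 0.28 rather than 0.01 on the log2 scale, 68.7% of all genes were called higher and 5.34% lower, and the cholesterol genes, with a median of 0.43, gave 30 higher and 1 lower. DESeq2, with its own size factors, called 18 of the 32 higher and 2 lower, where it called 10.4% of all genes higher and 15.3% lower.

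**Figure D1:**
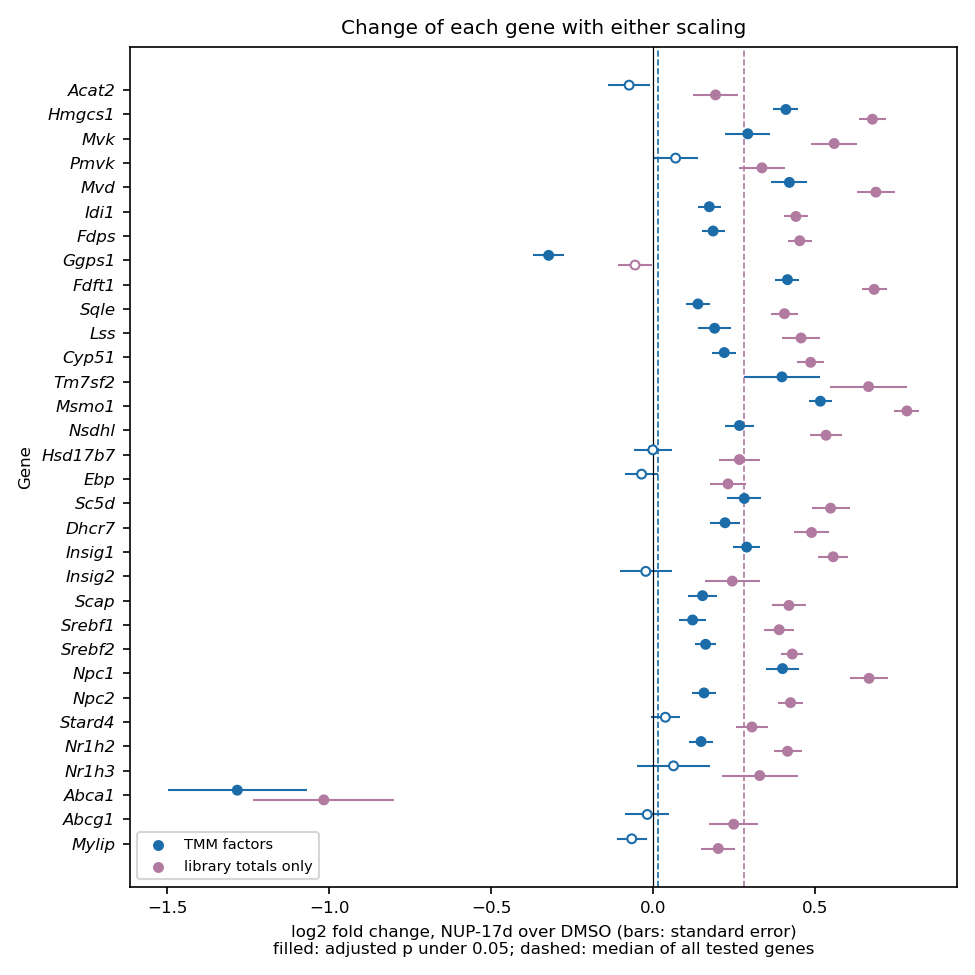
Log2 fold change of each of the 32 genes, NUP-17d over DMSO, with its standard error, under TMM factors (blue) and under library totals alone (purple). Filled points had an adjusted p under 0.05 and dashed lines mark the medians of all tested genes, 0.01 and 0.28. Each gene sits further right under totals alone, and Ggps1 is the one gene that is filled only under TMM factors.

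Levels can be compared between genes only on the deposited FPKM scale, which divides by transcript length. With DMSO the most abundant transcript was that of Fdps, farnesyl diphosphate synthase, at 105.6 ± 1.66 FPKM (SD, n = 3). Npc2, Idi1, Srebf2 and Msmo1 followed, with mean FPKM of 58.6, 53.0, 52.9 and 50.5, and the means of Idi1 and Srebf2 differed by less than the SD of Idi1, 1.21 FPKM. Among paired genes, Insig1 was at 28.4 ± 1.46 FPKM and Insig2 at 4.25 ± 0.34 FPKM, and Nr1h2, which encodes LXRβ, was at 34.3 ± 1.12 FPKM and Nr1h3, which encodes LXRα, at 4.47 ± 0.74 FPKM. Srebf2, whose product mainly drives the cholesterol genes, was at 52.9 ± 0.44 FPKM, and Srebf1, whose product mainly drives fatty acid synthesis, at 12.0 ± 0.26 FPKM. Abca1 was the least abundant, at 0.313 ± 0.059 FPKM, and Tm7sf2 the next, at 3.04 ± 0.27 FPKM.

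**Figure D2:**
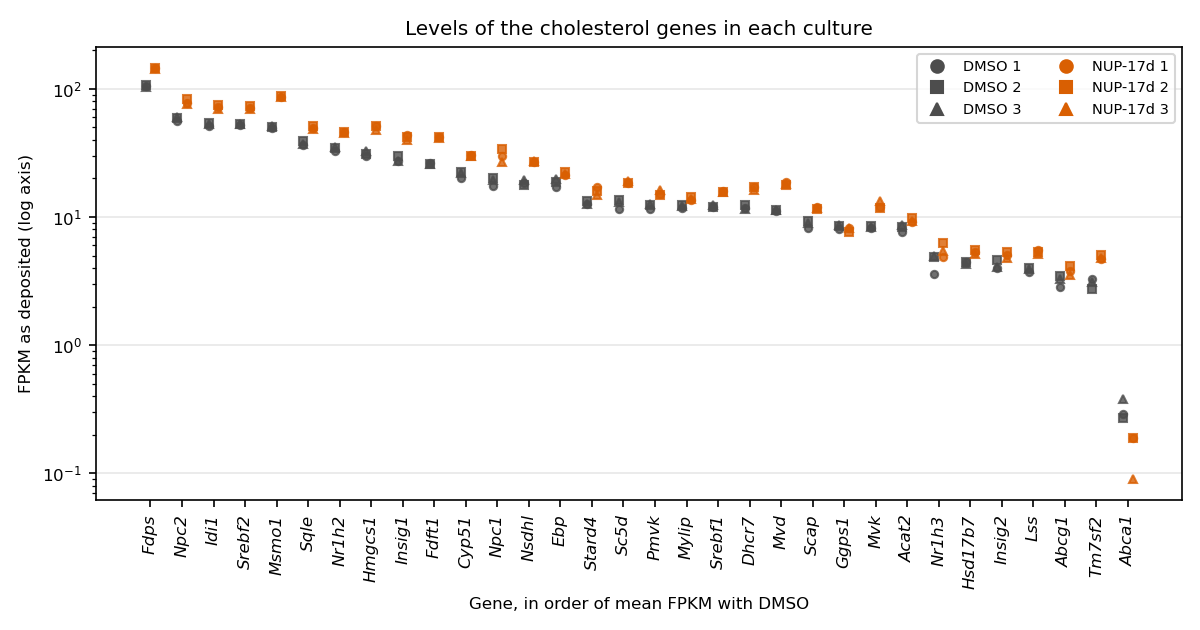
FPKM as deposited (log axis) of the 32 genes in each culture, in order of the DMSO mean, with DMSO in gray and NUP-17d in orange and 1 symbol per culture number. Levels run from 105.6 FPKM for Fdps to 0.313 FPKM for Abca1, and most orange points sit above the gray ones on this scale, which carries no composition factor.

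The synthesis enzymes rose along most of the route. Of the 19, 14 were called higher and 1, Ggps1, lower, beside 16.4% and 18.9% of all tested genes. The median log2 fold change of the enzymes was 0.22. With library totals alone 18 were called higher and 0 lower, beside 68.7% and 5.34% of all genes. The median of the enzymes was then 0.49, beside 0.28 over all genes. Their summed level was 1199, 1188 and 1198 CPM in the DMSO cultures and 1415, 1416 and 1410 CPM in the NUP-17d cultures. The sum was thus 18.3% higher with NUP-17d, 1414 ± 2.92 against 1195 ± 6.46 CPM (SD, n = 3), and the cultures of each condition lay close together. With library totals alone the sum was 42.3% higher.

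In the early steps, from acetyl-CoA to the isoprenoid diphosphates, 5 of 8 enzymes were called higher, 1 lower and 2 were not called. Among all tested genes 16.4% were called higher and 18.9% lower. Hmgcs1 (Entrez 208715), the cytosolic synthase that makes HMG-CoA, was at 120.1, 118.8 and 128.1 CPM with DMSO and at 164.9, 165.6 and 156.9 CPM with NUP-17d. Every NUP-17d culture was above every DMSO culture, and the change was 0.41 on the log2 scale (SE 0.038, adjusted p = 2.1e-09), or 1.33-fold. Mvd (Entrez 192156), which decarboxylates mevalonate diphosphate to isopentenyl diphosphate, was at 22.4, 21.4 and 22.0 CPM with DMSO and 30.2, 28.4 and 29.5 CPM with NUP-17d. The groups were again apart, with a log2 fold change of 0.42 (SE 0.055, adjusted p = 8.8e-07). The other early enzymes called higher changed less. Mevalonate kinase, Mvk, rose by 0.29 on the log2 scale, with the NUP-17d mean at 19.4 ± 1.62 CPM and the DMSO mean at 15.8 ± 0.14 CPM. Idi1, the isomerase that supplies dimethylallyl diphosphate, rose by 0.17, and Fdps, which joins the units into farnesyl diphosphate, by 0.19.

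Ggps1 (Entrez 14593) went the other way. Its product makes geranylgeranyl diphosphate, which leaves the sterol route for protein prenylation. It was at 47.8, 48.3 and 49.2 CPM with DMSO and 39.4, 36.5 and 40.3 CPM with NUP-17d. All NUP-17d cultures were below all DMSO cultures, and the log2 fold change was -0.32 (SE 0.047, adjusted p = 4.8e-06). With library totals alone it was -0.06 (adjusted p = 0.335), so the call rests on composition scaling, although Ggps1 stood below the all-gene median under both scalings. Acat2, the thiolase of the first condensation, and Pmvk, phosphomevalonate kinase, were not called, with 95% intervals of the log2 fold change of -0.20 to 0.05 and -0.07 to 0.20.

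In the late steps, from farnesyl diphosphate through squalene to cholesterol, 9 of 11 enzymes were called higher and none lower. The shares among all tested genes were 16.4% and 18.9%. Fdft1 (Entrez 14137), squalene synthase, which commits farnesyl diphosphate to sterols, was at 112.6, 105.0 and 106.5 CPM with DMSO and at 144.4, 143.0 and 144.7 CPM with NUP-17d. The cultures did not overlap and the log2 fold change was 0.41 (SE 0.037, adjusted p = 8.9e-10). Msmo1 (Entrez 66234) encodes a methylsterol monooxygenase that takes part in removing methyl groups from the sterol ring. The gene was at 102.9, 99.9 and 101.9 CPM with DMSO and 144.5, 144.6 and 146.7 CPM with NUP-17d. Its change, 0.52 on the log2 scale (SE 0.036, adjusted p = 5.6e-12), was the largest rise of the 32 genes and stayed between 0.50 and 0.53 when any 1 culture was left out.

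Tm7sf2 (Entrez 73166), a sterol reductase of the endoplasmic reticulum and nuclear envelope, was low, at 5.53, 4.43 and 5.05 CPM with DMSO and 6.38, 6.82 and 6.55 CPM with NUP-17d. It was called at a log2 fold change of 0.40 (SE 0.12, adjusted p = 0.010), but DESeq2 gave an adjusted p of 0.054, and without the second DMSO culture, its lowest, the adjusted p in edgeR was 0.069. The other late enzymes called higher lay between 0.14 and 0.28 on the log2 scale. They were Sqle, the rate-limiting squalene epoxidase, at 0.14, Lss, which closes the rings to lanosterol, at 0.19, Cyp51, the lanosterol demethylase, at 0.22, the sterol dehydrogenase Nsdhl at 0.27, the desaturase Sc5d at 0.28, and Dhcr7, the last reductase before cholesterol in one arm of the route, at 0.22. Hsd17b7, the ketoreductase that works beside Msmo1 and Nsdhl, and the isomerase Ebp were not called, at -0.0010 and -0.04 under TMM factors, with 95% intervals of -0.12 to 0.11 and -0.13 to 0.06. With library totals alone both were called higher, at 0.27 and 0.23, close to the all-gene median of 0.28.

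**Figure D3:**
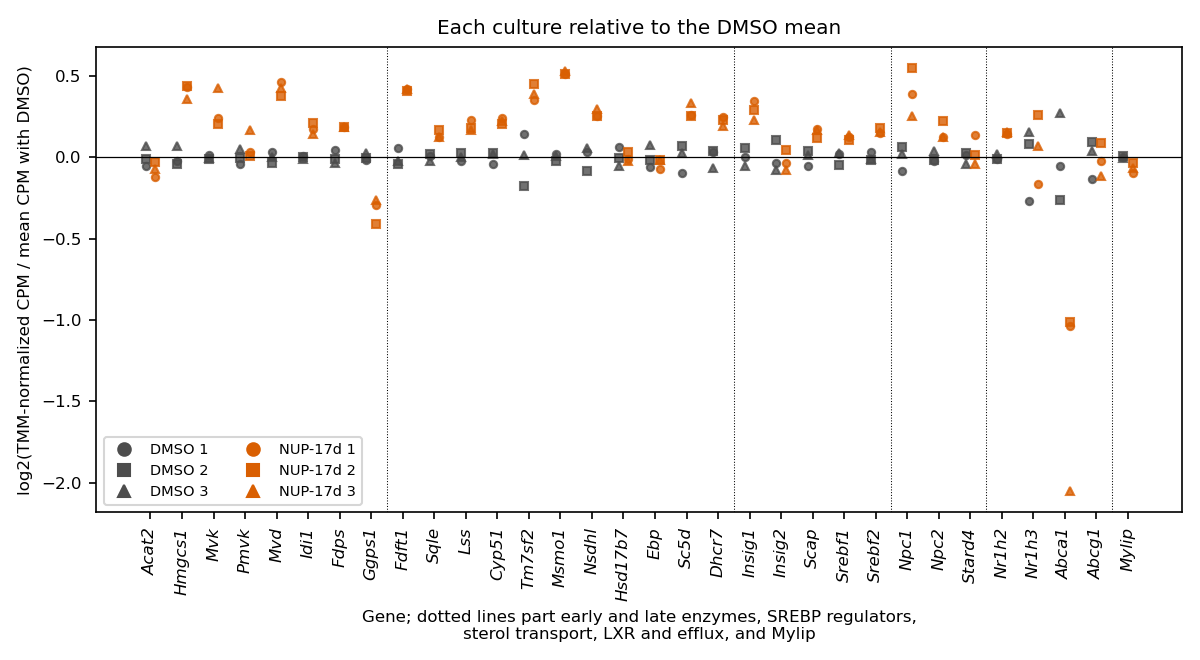
Each culture's TMM-normalized CPM over the DMSO mean of the gene, on the log2 scale, for the 32 genes in the order of their roles, with DMSO in gray and NUP-17d in orange. Most orange points lie above 0 with little spread, while Ggps1 and Abca1 lie below and Npc1, Nr1h3 and Abca1 spread most among the NUP-17d cultures.

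The bases before listed start sites of the cholesterol genes were read for sequence motifs known from SREBP-driven promoters. RefSeq promoters of build GRCm38.p6 were at hand for 26 of the 32 genes, and not for Fdps, Fdft1, Sqle, Npc1, Stard4 and Abcg1. Those shown are of the synthesis genes with the largest rises among the matched genes, Msmo1, Mvd and Hmgcs1, and of Insig1, the SREBP regulator with the largest rise. Each holds the 250 bases before the start on the gene's own strand, 5′ to 3′. Capitals mark TCACNCCAC, a short form of the sterol regulatory element, CCAAT, the box bound by NF-Y, GGGCGG, the GC box bound by Sp1 family factors, and CACGTG, an E box, each on either strand.
Hmgcs1 (chr13:119690101-119690350, plus strand): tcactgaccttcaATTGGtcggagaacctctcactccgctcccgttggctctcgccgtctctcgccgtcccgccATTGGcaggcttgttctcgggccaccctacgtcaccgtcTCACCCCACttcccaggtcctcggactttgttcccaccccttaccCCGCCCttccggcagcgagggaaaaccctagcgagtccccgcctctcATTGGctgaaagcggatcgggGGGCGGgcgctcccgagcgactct
Mvd (chr8:122443423-122443672, minus strand): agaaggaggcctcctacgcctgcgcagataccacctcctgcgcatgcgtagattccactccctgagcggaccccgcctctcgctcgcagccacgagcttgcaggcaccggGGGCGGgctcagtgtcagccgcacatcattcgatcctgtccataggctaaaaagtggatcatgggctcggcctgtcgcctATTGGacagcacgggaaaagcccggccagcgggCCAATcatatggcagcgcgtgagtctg
Msmo1 (chr8:64733579-64733828, minus strand): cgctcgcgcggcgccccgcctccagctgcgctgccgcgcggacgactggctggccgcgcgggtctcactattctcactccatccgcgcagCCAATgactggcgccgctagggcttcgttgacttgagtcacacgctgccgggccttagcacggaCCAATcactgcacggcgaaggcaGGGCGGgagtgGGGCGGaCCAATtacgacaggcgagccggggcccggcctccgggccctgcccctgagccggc
Insig1 (chr5:28071162-28071411, plus strand): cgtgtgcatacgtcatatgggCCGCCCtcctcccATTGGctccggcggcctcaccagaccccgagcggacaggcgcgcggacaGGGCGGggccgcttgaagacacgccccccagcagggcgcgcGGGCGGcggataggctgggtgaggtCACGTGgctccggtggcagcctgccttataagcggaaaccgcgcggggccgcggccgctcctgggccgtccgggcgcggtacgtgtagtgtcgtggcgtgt

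The window of Hmgcs1 held 1 sterol regulatory element, 3 CCAAT boxes and 2 GC boxes, that of Mvd 2 CCAAT boxes and 1 GC box, that of Msmo1 3 CCAAT boxes and 2 GC boxes, and that of Insig1 1 CCAAT box, 3 GC boxes and 1 E box. No match in these windows overlapped another. In the counts that follow, a gene counted if any window listed for it held the motif. A CCAAT box was present in 21 of the 26 genes, and in 15 of the 16 synthesis enzymes with a window. The shares were 37.5% of 27025 genes with a window and 40.9% of the tested genes among them. The enzyme without it was Acat2, which was not called, but it was also in Pmvk, Hsd17b7 and Ebp, which were not called, and Ggps1, which was called lower, held 3. A GC box was present in 22 of the 26 genes, compared with 35.4% of all genes with a window and 62.5% of the tested ones. An E box was present in 6, compared with 6.86% and 9.99%. The TCACNCCAC letters were found in 1 of the 26, Hmgcs1, and in 1.22% of all genes with a window. The window of Abca1, which fell most and is not shown, held 0 CCAAT boxes, 2 GC boxes and 1 E box. All of these are matches of letters within 250 bases and not measured binding sites, and their part in the changes was not tested.

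Of the 5 SREBP regulators, 4 were called higher, beside 16.4% of all tested genes, with a median log2 fold change of 0.15. Insig1 (Entrez 231070), which retains SCAP and is itself a target of SREBPs, was at 84.0, 87.1 and 80.8 CPM with DMSO and at 106.8, 102.5 and 98.5 CPM with NUP-17d, without overlap (log2 fold change 0.29, SE 0.041, adjusted p = 2.8e-06). Insig2, its less abundant relative, was not called, at -0.02 with a 95% interval of -0.18 to 0.13, and at 0.24 (adjusted p = 0.013) with library totals alone. The difference between Insig1 and Insig2 was not tested.

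The transcription factor genes rose less than most of the enzymes. Srebf2 was at 275.9, 267.0 and 267.5 CPM with DMSO and 299.5, 306.1 and 301.1 CPM with NUP-17d (log2 fold change 0.16, SE 0.034, adjusted p = 0.00038). Srebf1 was at 58.9, 56.0 and 59.0 CPM with DMSO and 63.3, 62.3 and 63.7 CPM with NUP-17d. The cultures did not overlap for either gene, but for Srebf1 the change of 0.12 (SE 0.041, adjusted p = 0.023) was the smallest of the calls. Scap, which encodes the escort protein, was at 39.6, 42.1 and 41.4 CPM with DMSO and 46.3, 44.4 and 46.1 CPM with NUP-17d (log2 fold change 0.15, SE 0.046, adjusted p = 0.011). The calls of Srebf1 and Scap were lost in DESeq2, with adjusted p of 0.107 and 0.068. That of Srebf1 was also lost without the second DMSO culture (0.131) or the third NUP-17d culture (0.063), and that of Scap without the first DMSO culture (0.064).

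Genes of lysosomal cholesterol export rose as well. Npc1 (Entrez 18145), the membrane protein that passes cholesterol out of the lysosome, was at 104.0, 114.8 and 111.5 CPM with DMSO and at 143.9, 160.8 and 131.1 CPM with NUP-17d. The groups did not overlap, the NUP-17d cultures spread more than the DMSO cultures, with SDs of 14.9 and 5.52 CPM, and the log2 fold change was 0.40 (SE 0.052, adjusted p = 7.8e-07). Leaving out any 1 culture gave 0.32 to 0.47. The second NUP-17d culture, highest for Npc1, was also highest in the summed macrophage genes, at 815.6 CPM against 731.9 and 739.0 CPM in the others. With DMSO, Npc1 was highest in the second culture. The macrophage sum was highest in the third, at 748.8 CPM against 724.0 CPM in the second. The part of macrophages in the Npc1 values was not tested. Of the 14 macrophage genes, 2 were called higher and 5 lower, beside 16.4% and 18.9% of all tested genes. Npc2, the soluble lysosomal carrier that hands cholesterol to NPC1, rose from 213.6 ± 5.27 to 238.2 ± 9.44 CPM (SD, n = 3), a log2 fold change of 0.16 (adjusted p = 0.0013). Stard4, a cytosolic sterol carrier and SREBP target, was not called under TMM factors, at 0.04 with a 95% interval of -0.05 to 0.12, and was called at 0.31 with library totals alone.

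The LXR and efflux genes did not move as a group. Nr1h2, the more abundant receptor gene, was at 75.9, 76.0 and 77.7 CPM with DMSO and at 84.5, 84.7 and 85.2 CPM with NUP-17d, a tight rise of 0.15 on the log2 scale (SE 0.038, adjusted p = 0.0031). Nr1h3 was at 7.18, 9.17 and 9.62 CPM with DMSO and 7.73, 10.4 and 9.08 CPM with NUP-17d. Its cultures overlapped and it was not called (log2 fold change 0.06, SE 0.11, adjusted p = 0.703), and with library totals alone it was called at 0.33 (adjusted p = 0.015).

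Abca1 (Entrez 11303), the pump that loads cholesterol onto lipid-poor apolipoproteins, gave the largest change of the 32 genes. It was at 3.48, 3.01 and 4.35 CPM with DMSO and at 1.76, 1.79 and 0.87 CPM with NUP-17d. The counts behind these values were 63, 57 and 81 with DMSO and 39, 40 and 19 with NUP-17d, few reads in every culture and fewest in the third NUP-17d culture. No cultures overlapped, and the log2 fold change was -1.28 (SE 0.21, adjusted p = 2.9e-05), with a 95% interval of -1.71 to -0.86. Without any 1 culture it lay between -1.45 and -1.02, and with library totals alone it was -1.02, so the fall was called under both scalings. The macrophage genes, from cells known to express Abca1, summed to 718.1 CPM with DMSO and 762.1 CPM with NUP-17d on average. Of these 14 genes, 2 were called higher and 5 lower, beside 16.4% and 18.9% of all tested genes. The other 7 were not called, and log2 fold changes over the 14 ran from -0.98 to 0.36. The part of macrophages in the Abca1 value was not tested.

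Abcg1 (Entrez 11307), the pump that acts on mature lipoprotein particles, was not called, with means of 20.8 ± 1.69 CPM with DMSO and 20.6 ± 1.45 CPM with NUP-17d and a 95% interval of the log2 fold change of -0.15 to 0.12. Mylip, an LXR target, was at -0.07 (adjusted p = 0.285), with cultures that did not overlap but means only 4.47% apart. Under library totals alone both were called higher, at 0.25 and 0.20, below the all-gene median of 0.28. A difference in change between Abca1 and Abcg1 was not tested.

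Other genes of cholesterol and isoprenoid metabolism moved in both directions. In 8 lists of 78 further genes, 72 were tested, 25 were called higher and 12 lower, with a median log2 fold change of 0.02. Over all tested genes 16.4% were called higher and 18.9% lower, with a median of 0.01, the values to set beside each list below. Osbpl6, Osbpl10, Rxrg, Ch25h, Cyp7b1 and Cyp46a1 were too low to test, at no more than 13 counts in any culture.

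In the prenylation and isoprenoid branches that leave the sterol route, 1 of 13 genes was called higher and 3 lower. The shares over all tested genes were 16.4% and 18.9%. The 3 genes called lower were Fntb, the farnesyltransferase beta subunit, at -0.28 on the log2 scale, Pggt1b, a subunit of a second protein prenyltransferase, at -0.18, and Rabggtb, a subunit of the enzyme that prenylates Rab proteins, at -0.17. These calls, like that of Ggps1, were lost with library totals alone, where the values were -0.02, 0.09 and 0.10, all below the all-gene median of 0.28. Those of Pggt1b and Rabggtb were also lost in DESeq2, with adjusted p of 0.180 and 0.064. The call of Pggt1b held without the first NUP-17d culture and was lost without any other (adjusted p = 0.083 to 0.178), and that of Rabggtb was lost without the second DMSO culture (0.052) or the third NUP-17d culture (0.078). Of the 10 fatty acid genes driven by SREBP1, 2 were called higher. The list's median was 0.03. Fasn, fatty acid synthase, rose from 171.8 ± 3.74 to 194.3 ± 9.12 CPM (SD, n = 3), or by 0.18 on the log2 scale. The other was Acacb, an acetyl-CoA carboxylase outside the naming rule that was picked after its values were seen, at 0.53 to 0.99 CPM with DMSO and 1.15 to 1.49 CPM with NUP-17d, and with an adjusted p of 0.061 in DESeq2. Without the second DMSO culture its adjusted p in edgeR was 0.072.

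Among 14 genes of SREBP cleavage and of sterol-dependent protein degradation, 1 was called higher and 5 lower. Rnf139, a ubiquitin ligase of the endoplasmic reticulum that binds INSIG, was at 121.7, 122.6 and 123.6 CPM with DMSO and 96.5, 89.8 and 96.9 CPM with NUP-17d (log2 fold change -0.38, SE 0.038, adjusted p = 1.0e-08). With library totals alone Rnf139 was still called lower, at -0.11. Aup1, a cofactor of such ligases, had a log2 fold change of -0.18 with TMM factors and was called the other way, at 0.09, with library totals alone. Erlin2, which binds them in the membrane, was higher by 0.18, and DESeq2 did not call it (adjusted p = 0.056). Its call was also lost without the third DMSO culture (0.070) or the first NUP-17d culture (0.056). The list's median was -0.05 with TMM factors and 0.22 with library totals alone, below the median of all genes in each case.

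Of 14 tested genes for proteins that move sterols between membranes, 10 were called higher and 1 lower, with a median of 0.18. Osbpl2, an oxysterol-binding protein relative, was at 43.1, 44.1 and 41.2 CPM with DMSO and 58.7, 58.2 and 55.1 CPM with NUP-17d (log2 fold change 0.42, SE 0.045, adjusted p = 2.6e-08). The GRAMD1 proteins carry cholesterol from the plasma membrane to the endoplasmic reticulum, and 2 of their 3 genes were called higher and 1 lower. Gramd1b was higher, at 0.31, as was Gramd1a, outside the naming rule and picked after its values were seen, at 0.26. Gramd1c fell from 40.5 ± 3.87 to 25.8 ± 0.31 CPM (SD, n = 3; log2 fold change -0.65, SE 0.059, adjusted p = 1.2e-09). Gramd1c was called lower with library totals alone too, at -0.38. DESeq2 called 6 of the 14 sterol transfer genes higher and 1 lower, where it called 10.4% of all genes higher and 15.3% lower.

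Of 5 genes of lipoprotein receptors and their partners, 4 were called higher. Vldlr, a receptor for triglyceride-rich lipoproteins, was at 5.31, 5.17 and 6.34 CPM with DMSO and 9.45, 8.92 and 8.62 CPM with NUP-17d (log2 fold change 0.68, SE 0.11, adjusted p = 1.2e-05). Lrp1, a large endocytic receptor, rose by 0.23 and Lrpap1, its chaperone, by 0.20. Lrp1 was highest in the second culture of either condition, at 254.9 CPM with DMSO and 312.9 CPM with NUP-17d, as was Npc1. The summed macrophage genes were highest in the third DMSO culture and the second NUP-17d culture.

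Of 4 genes of cholesterol ester metabolism, 2 were called higher and 1 lower. The fourth, Lipe, a lipase gene outside the naming rule and picked after its values were seen, was not called, at -0.08 (adjusted p = 0.184). Soat1, the acyltransferase found in most tissues, was at 86.7, 100.4 and 102.2 CPM with DMSO and 125.8, 127.2 and 116.3 CPM with NUP-17d (log2 fold change 0.35, SE 0.049, adjusted p = 1.8e-06). Soat2, the form known from liver and intestine, was at 102.5, 99.4 and 105.9 CPM with DMSO and 62.5, 68.2 and 67.4 CPM with NUP-17d (log2 fold change -0.63, SE 0.042, adjusted p = 2.3e-12). The groups did not overlap for either gene, and with library totals alone Soat2 was still called lower, at -0.37. Nceh1, an ester hydrolase, rose by 0.35, with 99.2 CPM in the second NUP-17d culture and 86.8 and 82.3 CPM in the others.

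Of 10 tested LXR partners and other targets, 5 were called higher and 2 lower. Rxra, the receptor that pairs with LXR, was higher by 0.32 on the log2 scale and Smpdl3a, a phosphodiesterase and LXR target, by 0.29. Abcg4, a relative of Abcg1, had a log2 fold change of -0.37, which became -0.10 and was not called with library totals alone. The second gene called lower, Pltp, a phospholipid transfer protein gene outside the naming rule and picked after its values were seen, had a log2 fold change of -0.42 at 4.11 ± 0.14 CPM with NUP-17d and 5.51 ± 0.53 CPM with DMSO (SD, n = 3). Its call was lost with library totals alone (-0.16) and in DESeq2 (adjusted p = 0.052). It was also lost without the third DMSO culture (0.071). Neither of the 2 tested oxysterol enzymes was called.

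**Figure D4:**
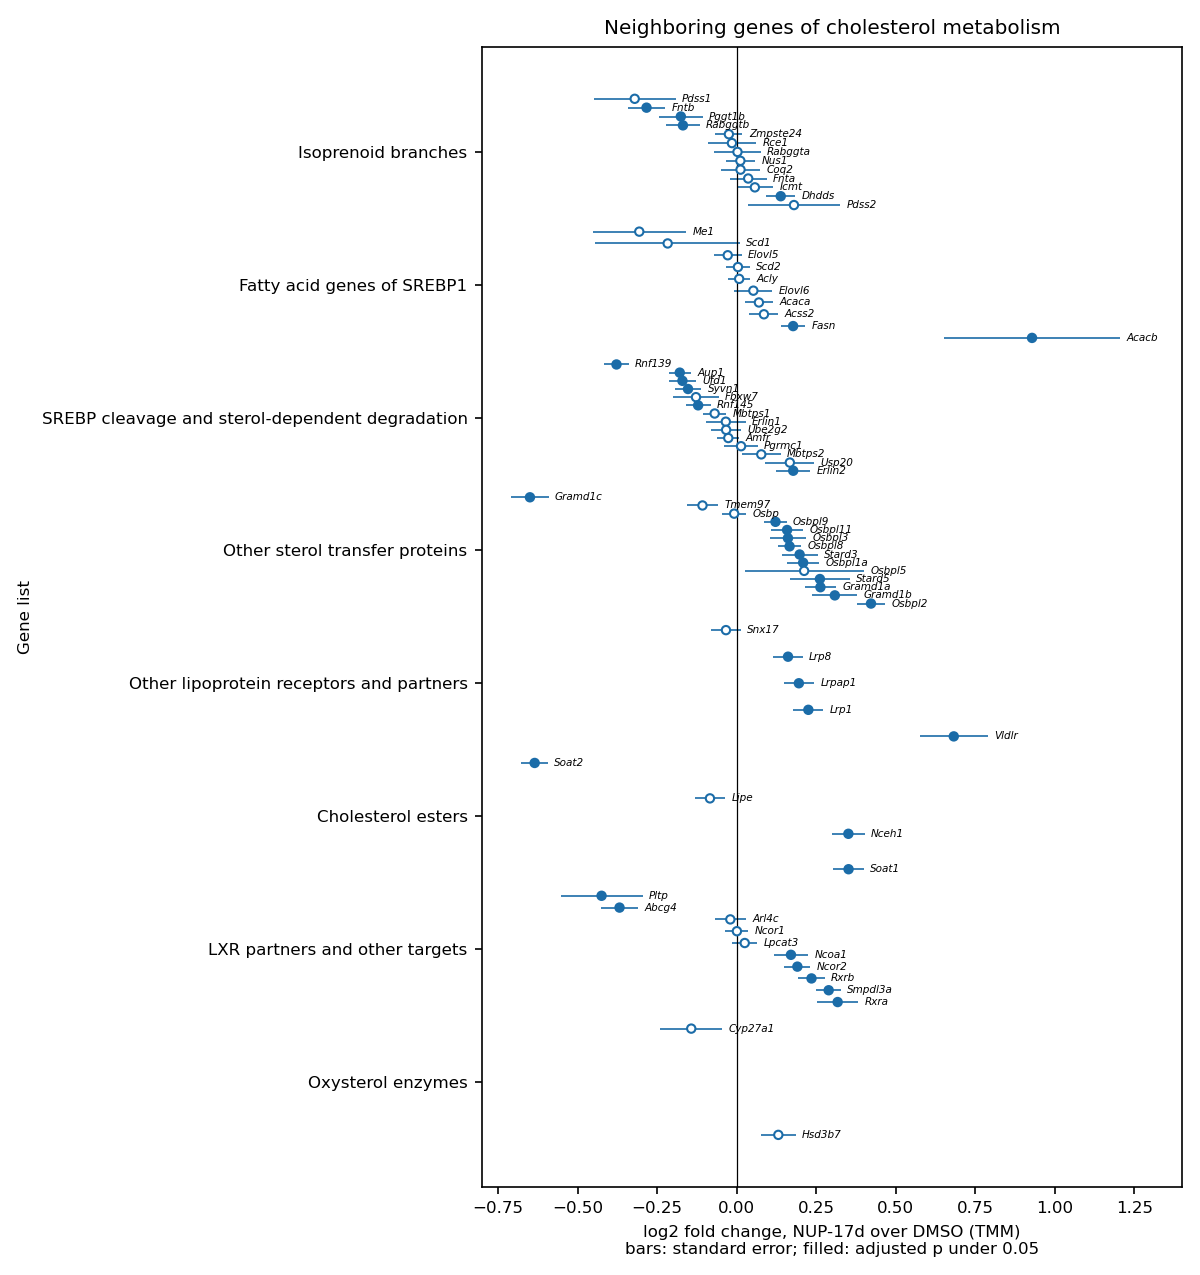
Log2 fold change under TMM factors, NUP-17d over DMSO, with its standard error, for the 72 tested genes of the 8 further lists, sorted within each list. Filled points had an adjusted p under 0.05, and the sterol transfer proteins and lipoprotein receptors hold mostly filled points above 0 while Gramd1c and Soat2 lie near -0.65 and -0.63.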

How the data were processed

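The authors deposited 1 table per culture with an expected count, an estimated number of reads per gene, and an FPKM, scaled by transcript length and library total. Genes without reads are left out of a table and counted as 0. The submitters' processing notes name mm10, and the aligner and counting program are not given in the sources used here. The labels describe DNBseq sequencing while the paper's methods describe another platform. Library strand is unclear, so antisense reads cannot be set apart.

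Expected counts were rounded and tested with edgeR 4.0.16 (R 4.3.3): filterByExpr, TMM, glmQLFit and glmQLFTest, treatment as the only term, Benjamini-Hochberg adjustment over 12306 genes, threshold 0.05. The fits were also run on simulated counts without a built-in composition shift. That run does not bear on the choice of scaling. CPM are TMM-normalized. Alternatives were DESeq2 1.42.0, library totals only, RLE and upper-quartile factors, no count filter, removal of hemoglobin or erythroid genes, limma 3.58.1 on log2 FPKM with 1 or 0.1 added (genes averaging 1 FPKM or more), the replicate number as a block, a minimum log2 change of 0.5, and each culture left out.

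The genes and lists were chosen with earlier results of these data known. By rule, values in every culture are shown for those of the 32 genes called with a log2 change of at least 0.3 either way, and for Srebf2, Srebf1, Scap, Insig1, Nr1h2 and Nr1h3. From each further list up to 3 called genes with the largest change among those with a mean count of at least 100 are named. With 3 cultures per condition, and counting error largest for genes of few reads such as Abca1, small changes are least certain there. Intervals are 95% intervals of the fit.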

Additional observations from a re-analysis of the deposited data

How the results depend on the processing

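Of 510 log2 fold changes of the 32 genes under the alternatives, 458 kept their direction and side of the threshold and 33 changed sign. In all, 27 became called, 18 of them with a change of sign, and 10 lost their call. All sign changes were of genes not called with TMM factors. Scaling mattered most. With library totals only, limma on log2(FPKM + 1) and limma on log2(FPKM + 0.1), log2 fold changes became 0.19, 0.18 and 0.19 for Acat2, 0.27, 0.22 and 0.27 for Hsd17b7, 0.23, 0.23 and 0.24 for Ebp, 0.24, 0.20 and 0.24 for Insig2, 0.25, 0.20 and 0.25 for Abcg1, and 0.20, 0.19 and 0.20 for Mylip. The median over all genes in these fits was 0.28, 0.24 and 0.27, above the value of each of these genes in the same fit. The call of Ggps1 was lost in all 3 fits. Abca1, with a mean FPKM under 1, was not in the limma fits. Upper-quartile factors gave 0.023 for Hsd17b7, 0.0012 for Insig2 and 0.0059 for Abcg1, and no count filter gave 0.0030 for Hsd17b7. Leaving out each culture gave -0.0296 to 0.0288 for Hsd17b7, -0.0653 to 0.0031 for Ebp, -0.0624 to 0.0337 for Insig2, -0.014 to 0.0738 for Stard4, -0.0529 to 0.1645 for Nr1h3 and -0.0811 to 0.0292 for Abcg1.

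Members called higher were 18 to 30 and called lower 0 to 2 under the other scalings, tools and filters. The count called lower was 1 with library totals only and 0 in both limma fits. Among synthesis enzymes it was 0 in these 3, where Ggps1 lost its call. With a minimum log2 change of 0.5, 1 gene was higher and 1 lower, and of the synthesis enzymes 1 was higher and 0 lower. The 25 further genes called higher became 16 in DESeq2, 58 with library totals only and 56 in both limma fits. The 12 called lower became 3 with library totals only and in both limma fits. Over all genes, 10.4% were called higher in DESeq2 and 68.7% with library totals only, and 15.3% and 5.34% lower. These shares were not taken for limma. Without any 1 culture, 19 to 21 of the 32 were higher and 2 lower, 13 to 14 synthesis enzymes were higher, and 21 to 25 further genes were higher and 9 to 12 lower. With the replicate block, 21 of the 32 were higher and 2 lower, and no call among the 32 changed. Same-numbered cultures had deviations that correlated at 0.0335, -0.021 and -0.0324. These values show no pairing by number, but they cannot tell whether cultures of the same number shared a mouse or a batch. Counts of low genes, Abca1 above all, limit the precision, and no spike-in was used here to set an absolute scale.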
